A study of Mus musculus with 16 samples.

Results

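The 46 genes described here are interferon-stimulated genes, and all of them are protein-coding. They were chosen by name, with earlier results of these libraries in view, out of 21684 protein-coding genes among the 56941 rows of each deposited table. Each name matched 1 protein-coding row in both tables, and all 46 had a summed level of at least 10 and were tested in every comparison. By role they comprised 4 sensors of RNA and DNA, 5 members of the OAS family, 4 members of the IFIT family, 9 immunity-related and guanylate-binding GTPases, 8 Mx GTPases and other antiviral effectors, 4 transcription factors, 8 genes of the ISG15 and ubiquitin system and 4 IFI genes.

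Interferon-stimulated genes are the antiviral program that a cell turns on after an interferon binds its receptor. Type I interferons bind IFNAR1 and IFNAR2, the kinases JAK1 and TYK2 are activated, and a complex that holds STAT2 and IRF9 (ISGF3) binds the interferon-stimulated response element (ISRE) in promoters. Type II interferon acts through another element, GAS. Nucleic acid sensors can also turn on part of the program through IRF3 and IRF7, and neurons and glia as well as fibroblasts can respond to interferon.

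RNA was sequenced in bulk from both sides of cocultures in which cells on an insert shared medium, and no contact, with ganglion explants for about 70 hours. Each culture held 8 to 13 explants, pieces of superior cervical ganglia (SCG), sympathetic ganglia taken from wild-type C57BL/6J pups of postnatal day 1 to 4 and kept in medium with serum and nerve growth factor, and the pieces held neurons, glia and other ganglion cells. They were cultured alone (SCG, n = 3 libraries), with 10000 NIH 3T3 mouse embryonic fibroblasts (SCG+MEF, n = 3) or with 10000 mPSC1 cells (SCG+PSC, n = 4). mPSC1, 1 immortalized line of mouse pancreatic stellate cells (PSCs), was sequenced alone (PSC, n = 3) and after culture with SCG explants (PSC+SCG, n = 3). No library was given interferon or an inhibitor of it, so the series holds no direct control of the pathway.

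The values are normalized counts, the reads on a gene divided by the DESeq2 size factor of the library, and the stellate cell and ganglion libraries were normalized apart. Reads on genes ranged from 31900689 to 41632381 in the 14 libraries in which they could be recovered. Explants of every group held neuron markers (summed levels of 117807 to 270833), which summed to at most 1432 in the stellate cell libraries. Macrophage markers summed to 8689 to 13346 in SCG, 9218 to 13104 in SCG+MEF and 9331 to 11575 in SCG+PSC, with none of the 13 at 0 in any explant library. Of 7 markers of T cells, NK cells and plasmacytoid dendritic cells, 5 or 6 were at 0 in each explant library. Klrb1c was above 0 in every explant library, at 62.9 to 205. In bulk samples a change in the number of cells of a type and a change in RNA per cell cannot be told apart.

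The level of these genes depended most on which cells were sequenced. Summed over the 46 genes, the normalized count was 260734, 419235 and 110742 in PSC replicates 1 to 3 and 285387, 372684 and 89376 in PSC+SCG. It was 16233, 15140 and 17319 in SCG and 17098, 17011 and 18425 in SCG+MEF. In SCG+PSC it was 29694, 76468, 20052 and 20512 in replicates 1 to 4. The mPSC1 line thus carried the highest levels without any coculture, and only 2 of the 4 SCG+PSC libraries stood well above the other explants. Because stellate cell and ganglion libraries were normalized apart, levels between the tables are set side by side and were not tested.

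**Figure D1:**
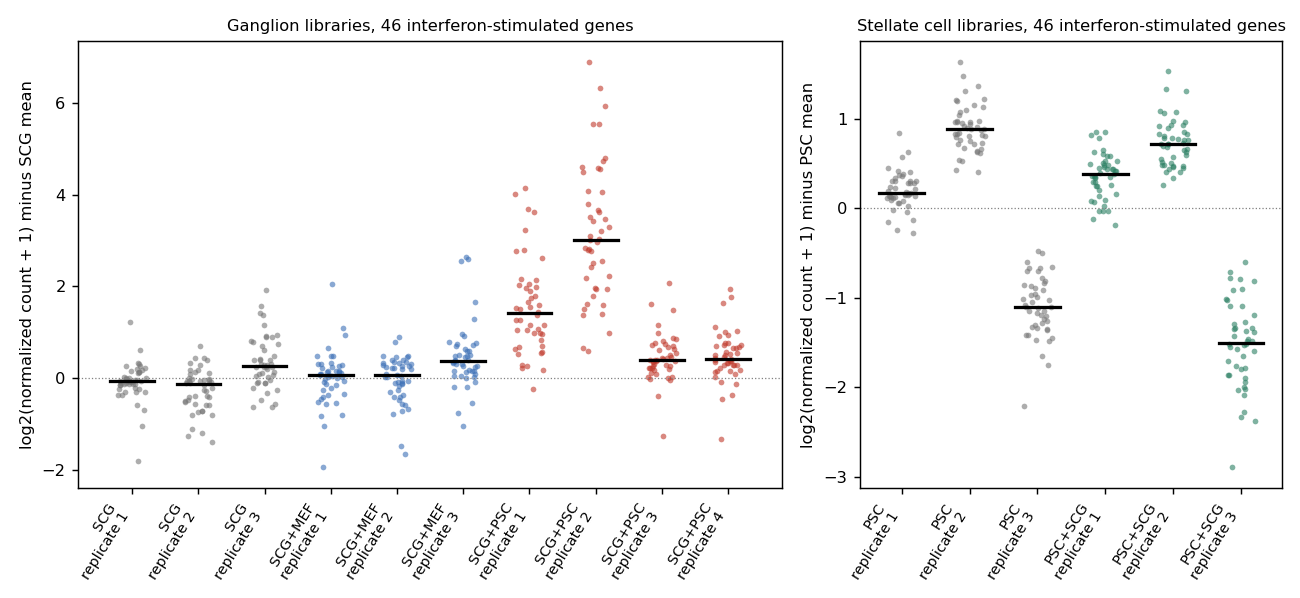
Each point is 1 of the 46 interferon-stimulated genes in 1 library, as log2(normalized count + 1) minus the mean of the untreated group of the same table (SCG at left, PSC at right), and black bars are medians over the 46 genes. The medians of SCG+PSC replicates 1 and 2 were 1.41 and 3.02, those of replicates 3 and 4 were 0.40 and 0.42, and both replicates 3 of the stellate cell libraries lay below all others.

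Per kilobase of exon, the highest mean levels in PSC were those of Isg15 (17925 normalized counts per kb), Bst2 (16856) and Ifit3 (6121), and the lowest was that of Gbp5 (88.8). ISG15 is a ubiquitin-like modifier, and BST2, or tetherin, holds budding virions at the cell surface. In SCG the order was different, with Trim25 (407 normalized counts per kb), Stat2 (329) and Ifit2 (239) highest and Ifi44, Oas3 and Gbp5 each below 1 normalized count per kb. Trim25 is a ubiquitin ligase of RNA sensing, and STAT2 a signal transducer of the interferon receptors.

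In SCG explants cultured with mPSC1 cells, all 46 genes had a higher mean log2 level than in SCG alone, with a median log2 fold change of 1.66 where the median over all protein-coding genes was 0.01. This comparison was among those in view when the genes were chosen, so its values are a description and no test of it is used as support. A gene was past the threshold when limma on log2(normalized count + 1) gave it an adjusted p no higher than 0.05 together with a log2 fold change of 0.5 or more in either direction. By that rule 0 of the 46 genes were past the threshold and 36 had an unadjusted p under 0.05. Among all protein-coding genes the shares were 0.0189% and 4.14%. The edgeR quasi-likelihood test on recovered reads called 0 and DESeq2 called 18 of the 46, with 0.333% of all genes called higher by DESeq2. With the replicate number as a block, limma called 11 of the 46 genes higher (Parp14, Parp9, Gbp2, Samd9l, Rtp4, Irf9, Dtx3l, Irf7, Xaf1, Oas2 and Trim25), where 1.76% of all genes were called higher. For 22 of the 46 genes the 3 SCG+PSC libraries of the test lay above all 3 SCG libraries, which 4.33% of all genes did, and in each of the 3 same-numbered pairs 27 of the 46 were higher (20.2% of all genes).

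The 4 SCG+PSC libraries stood far apart from each other. Replicate 2 was the highest of all 10 explant libraries for 46 of 46 genes (14.3% of all genes), and replicate 2 above replicate 1 above the other 8 libraries held for 39 of 46 (2.25% of all genes). The 7 exceptions were Gbp5, Herc6, Tgtp1, Irf1, Rsad2, Cmpk2 and Mx1. Replicate 3 lay above every SCG library for 22 of 46 genes (19.1% of all genes), and replicate 4, which was not in the main test, for 24 of 46 (20.2% of all genes). Between same-numbered libraries, SCG+PSC replicate 2 was above SCG replicate 2 for 46 genes with a median log2 difference of 3.30, and replicate 1 was above for 45 with a median of 1.46. In the pair of replicates 3 only 27 genes were higher and 19 lower, with a median of 0.10. The main test used replicates 1 to 3, the numbers that SCG and SCG+MEF also have. The sources used here do not say which SCG+PSC library the study itself left out. With all 4 SCG+PSC libraries the median log2 fold change over the 46 genes was 1.35, without replicate 2 it was 0.94, and with replicates 1, 3 and 4 as the group it was 0.82.

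Over the 46 genes, the excess of replicate 2 over the SCG mean and that of replicate 1 ranked the genes alike (Spearman's rho = 0.93 across genes, which are not independent replicates and which share the SCG mean). Replicate 2 was higher than replicate 1 by a median of 2.88-fold, from 1.34-fold for Ifit2 to 9.38-fold for Mx1. Genes at a low level per kb in SCG had the larger fold changes (rho = -0.62 across the 46 genes), a relation in which the same SCG libraries enter both measures.

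The promoters of the 5 genes with the highest and the 2 with the lowest log2 fold change are shown, since interferon signaling acts through short elements near the start of transcription. Each is the 120 bases directly before the start of the gene's canonical GENCODE M39 transcript, read 5′ to 3′ on the gene's strand from GRCm39. Capitals mark the ISRE core (GAAA, any 2 bases, GAAA) on either strand, with overlapping matches joined, and in Irf1 the GAS pattern TTCNNNGAA. The windows are chr16:23428526-23428645 (plus strand, Rtp4), chr3:151455626-151455745 (minus, Ifi44), chr6:121222737-121222856 (plus, Usp18), chr5:120887934-120888053 (minus, Oas2), chr4:156285304-156285423 (minus, Isg15), chr11:53660721-53660840 (plus, Irf1) and chr19:34527925-34528044 (plus, Ifit2).
Rtp4: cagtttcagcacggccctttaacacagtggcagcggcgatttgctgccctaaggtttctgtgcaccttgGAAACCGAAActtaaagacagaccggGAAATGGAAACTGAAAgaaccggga
Ifi44: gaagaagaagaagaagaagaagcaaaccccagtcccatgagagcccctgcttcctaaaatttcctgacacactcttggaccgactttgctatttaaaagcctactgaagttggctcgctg
Usp18: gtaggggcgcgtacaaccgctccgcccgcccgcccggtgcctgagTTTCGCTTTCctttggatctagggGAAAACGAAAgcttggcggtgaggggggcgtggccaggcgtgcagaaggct
Oas2: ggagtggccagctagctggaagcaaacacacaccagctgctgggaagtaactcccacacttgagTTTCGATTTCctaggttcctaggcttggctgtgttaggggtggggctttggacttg
Isg15: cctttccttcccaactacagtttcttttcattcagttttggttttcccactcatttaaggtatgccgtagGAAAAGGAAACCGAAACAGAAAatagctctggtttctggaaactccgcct
Irf1: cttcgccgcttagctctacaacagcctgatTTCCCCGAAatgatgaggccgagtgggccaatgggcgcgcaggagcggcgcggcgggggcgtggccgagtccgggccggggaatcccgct
Ifit2: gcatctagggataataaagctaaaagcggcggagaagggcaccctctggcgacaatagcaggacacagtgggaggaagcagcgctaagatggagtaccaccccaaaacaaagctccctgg

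In a window from 250 bases before to 50 bases after the start, the ISRE core was found on either strand in 25 of the 46 promoters (54.3%), in 41 of 91 promoters of other known interferon-stimulated genes (45.1%) and in 829 of all 21621 promoters of protein-coding genes (3.83%). The GAS pattern was found in 12 of the 46 (26.1%), in 8 of the 91 (8.79%) and in 8.82% of all promoters. The median log2 fold change in SCG+PSC against SCG was 1.78 for the 25 genes with an ISRE core in the window and 1.28 for the 21 without, with ranges that overlapped (0.72 to 4.01 and 0.24 to 3.96). For the 12 genes with a GAS pattern it was 1.498 and for the 34 without 1.78. A match is a run of letters and not a measured binding site.

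Rtp4, a receptor transporter protein that restrains viral replication, had the highest fold change. Its normalized counts were 27.3, 22.8 and 55.3 in SCG, 45.6, 20.2 and 56.8 in SCG+MEF, and 540, 2064, 140 and 128 in SCG+PSC replicates 1 to 4. All 4 SCG+PSC libraries lay above all 6 other explant libraries. This included replicates 3 and 4, which lay above every SCG library for 22 and 24 of the 46 genes. The log2 fold change was 4.01 ± 0.81 (SE) against SCG and 3.81 ± 0.81 against SCG+MEF, and the latter was past the threshold in limma with the replicate block (adjusted p = 0.0401) and in DESeq2 without one (adjusted p = 0.00614), but not in limma without it. In the annotation used here 26.6% of its exon bases also lie in Gm45338, so part of its reads cannot be assigned with certainty.

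Among the 8 genes of the ISG15 and ubiquitin system, Isg15 and Usp18 had the largest fold changes. Isg15 stood at 63.8, 49.5 and 108 in SCG, 53.7, 56.1 and 76.0 in SCG+MEF, and 667, 3326, 140 and 140.2 in SCG+PSC. Usp18, the protease that removes ISG15 and a brake on type I receptor signaling, stood at 14.2, 7.61 and 49.2 in SCG, 8.11, 22.8 and 21.3 in SCG+MEF, and 240, 1505, 31.0 and 39.3 in SCG+PSC. The 4 SCG+PSC values of Isg15 were all above the other 6, whereas Usp18 in replicates 3 and 4 lay inside the range of SCG. The log2 fold changes against SCG were 3.26 ± 0.87 for Isg15 and 3.60 ± 1.16 for Usp18, and with all 4 SCG+PSC libraries that of Usp18 was 2.97.

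By mean normalized count, not scaled to length, the other 6 genes of this system stood higher in SCG than Isg15 and Usp18. Per kb, Isg15 (94.1) was below Trim25 (407) and Parp14 (114) in SCG. It was above Parp9 (91.0), Dtx3l (77.1), Trim21 (76.7) and Herc6 (8.78). Parp14, an ADP-ribosyltransferase, was at 978, 1640 and 652 in SCG, 1116, 1280 and 690.3 in SCG+MEF, and 1644, 3954, 1339 and 1481 in SCG+PSC. Parp9, its partner with the ubiquitin ligase Dtx3l, was at 507.3, 507 and 357 in SCG, 568, 589 and 500 in SCG+MEF, and 1080, 2589, 692 and 733 in SCG+PSC. For Parp9 and Dtx3l, but not for Parp14, all SCG+PSC libraries lay above all SCG libraries. Against SCG+MEF the log2 fold changes of Parp14 and Parp9 were 1.05 ± 0.43 and 1.18 ± 0.38, and both were past the threshold in limma with the replicate block (adjusted p = 0.0219 and 0.0477) and not in limma without it. Trim21, a ubiquitin ligase and antibody receptor in the cytosol, stood at 308, 209 and 344 in SCG, 276, 286 and 393 in SCG+MEF, and 415, 730, 328 and 344 in SCG+PSC, so that the groups overlapped.

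The 4 transcription factors differed widely among themselves. Irf7, which amplifies the type I response, was at 36.5, 59.0 and 77.9 in SCG, 45.6, 66.6 and 90.2 in SCG+MEF, and 385, 1503, 125 and 91.8 in SCG+PSC, so that replicate 4 exceeded the highest of the other libraries by little. Irf9, the DNA-binding part of ISGF3, was at 911, 734 and 730 in SCG, 871, 921 and 684 in SCG+MEF, and 1640, 3035, 1035 and 1062 in SCG+PSC. Irf9 in SCG+PSC did not overlap with either other group, and its difference from SCG+MEF (log2 fold change 1.08 ± 0.31) was past the threshold in limma with the replicate block (adjusted p = 0.0406) and not in limma without it. Stat2 reached 3021 and 5864 in SCG+PSC replicates 1 and 2 and stood at 2376 and 2291 in replicates 3 and 4, inside the SCG range of 1883 to 2416. Irf1, a transcription factor that type II interferon induces, had the second lowest fold change of the 46 (0.32 ± 0.15), with 896, 902 and 1031 in SCG, 1018, 1109 and 1155 in SCG+MEF, and 1087, 1490, 1001 and 1067 in SCG+PSC.

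**Figure D2:**
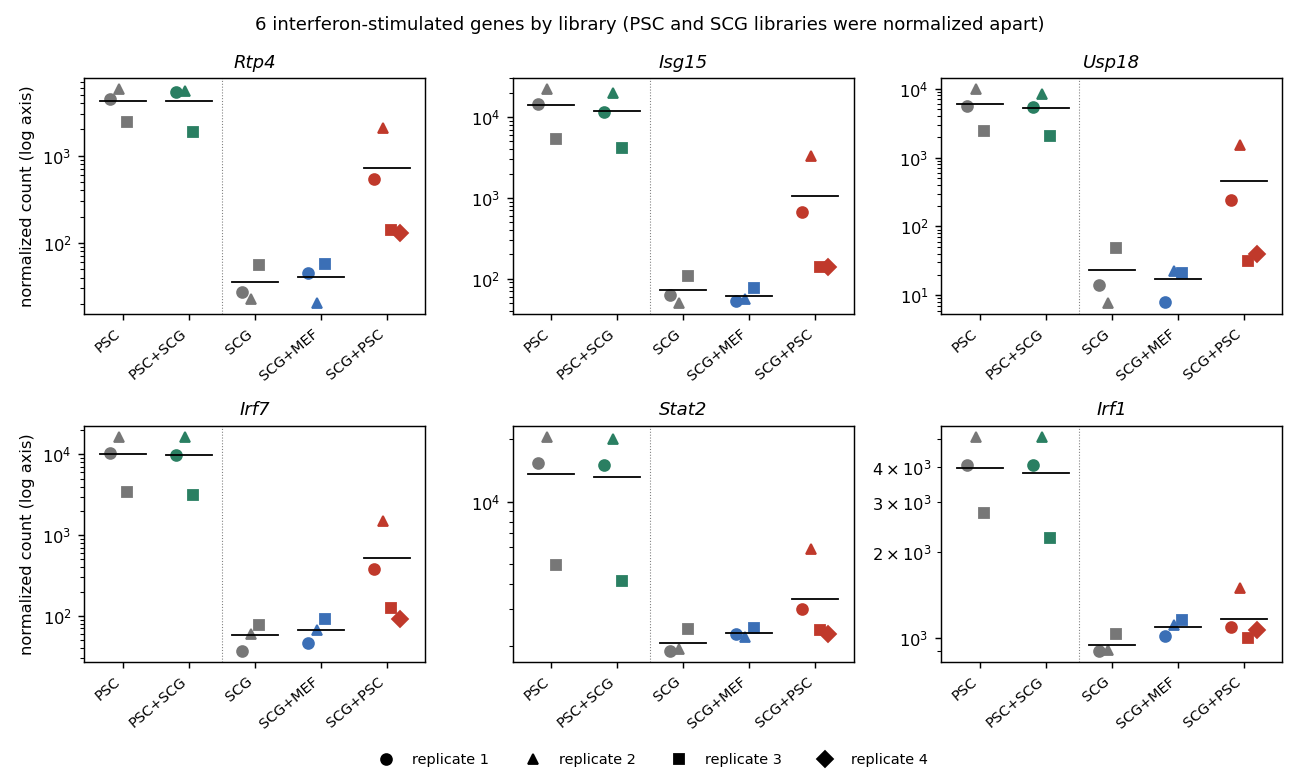
Normalized counts of 6 interferon-stimulated genes in each of the 16 libraries on a log axis, with replicates told apart by symbol and group means drawn as black bars. In SCG+PSC replicate 2 was highest and replicate 1 second for all 6 genes, and in PSC and PSC+SCG replicate 3 was lowest for all 6 genes.

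The 4 sensors all had SCG+PSC replicates 1 to 3 above the SCG libraries. Ifih1, or MDA5, a sensor of long double-stranded RNA, was at 130, 140 and 165 in SCG, 153, 181 and 242 in SCG+MEF, and 411, 1347, 223 and 278 in SCG+PSC. The nucleic acid sensor Zbp1 was at 10.1, 11.4 and 10.2 in SCG, 17.2, 13.1 and 14.2 in SCG+MEF, and 70.0, 322, 15.0 and 18.2 in SCG+PSC. Replicates 3 and 4 were above SCG for both genes, but for Ifih1 replicate 3, and for Zbp1 replicate 3, lay within the range of SCG+MEF. The log2 fold changes against SCG ran from 1.12 for Eif2ak2, the kinase PKR, to 2.63 for Zbp1.

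The OAS genes encode oligoadenylate synthetases, which sense double-stranded RNA, or their relatives. Oas2 was at 15.2, 1.90 and 6.15 in SCG, 7.10, 7.01 and 5.07 in SCG+MEF, and 84.4, 324, 20.3 and 13.1 in SCG+PSC, and its log2 fold change against SCG was 3.59 ± 0.90. Oas3 was at 3.04, 2.85 and 4.10 in SCG, 8.11, 7.01 and 4.05 in SCG+MEF, and 28.8, 104, 4.27 and 3.03 in SCG+PSC, so that replicates 3 and 4 lay at or near the level of SCG. Oas1a was at 19.2, 12.4 and 41.0 in SCG, 14.2, 6.13 and 22.3 in SCG+MEF, and 64.3, 239, 35.2 and 34.3 in SCG+PSC. These counts are low, and 9.54% of the 100-base words of Oas1a transcripts also occur in other genes, Oas1g among them. Oasl2, which stood at 1580, 838 and 1550 in SCG, had the lowest log2 fold change of the family (0.94 ± 0.35).

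The 4 IFIT genes encode proteins that bind viral RNA, and all 4 lie on chromosome 19. Ifit3 was at 198, 145 and 352 in SCG, 163, 156 and 283 in SCG+MEF, and 806, 5111, 210.4 and 240 in SCG+PSC. Ifit3b had a similar pattern (83.0, 53.3 and 154 in SCG and 345, 2022, 89.7 and 139 in SCG+PSC). However, 16.7% of the 100-base words of Ifit3 and 27.2% of those of Ifit3b occur in the other gene, which limits the counts of both. Ifit2 had the lowest fold change of all 46 genes, at 1420, 1343 and 1468 in SCG, 1296, 1336 and 1494 in SCG+MEF, and 1586, 2123, 1383 and 1554 in SCG+PSC (log2 fold change 0.24 ± 0.15). For Ifit1, Ifit3 and Ifit3b replicates 3 and 4 of SCG+PSC lay inside the range of SCG.

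The 9 GTPases of the immunity-related and guanylate-binding families act on vacuoles of intracellular pathogens. Irgm1, a regulator of the other members, was at 548, 794 and 587 in SCG, 497, 738 and 719 in SCG+MEF, and 1411, 4390, 740.3 and 868 in SCG+PSC. Its log2 fold change against SCG was 1.39 ± 0.50, and replicate 3 lay inside the SCG range. Gbp2 was at 288, 216 and 192 in SCG, 437, 320 and 323 in SCG+MEF, and 450, 879, 419 and 429 in SCG+PSC. Gbp5 was at 2.02, 2.85 and 4.10 in SCG, 15.2, 4.38 and 23.3 in SCG+MEF, and 6.71, 43.6, 4.27 and 11.1 in SCG+PSC. Gbp5 was the 1 gene of the 46 that had a lower mean in SCG+PSC than in SCG+MEF on the log scale (-0.07 ± 0.82). Tgtp1 was at 7.09, 7.61 and 4.10 in SCG, 3.04, 8.76 and 41.6 in SCG+MEF, and 30.7, 89.2, 7.48 and 8.07 in SCG+PSC, and 74.7% of its 100-base words occur in other genes, chiefly Tgtp2.

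Mx1 and Rsad2 are among the antiviral effectors whose groups overlapped. Mx1, a GTPase that traps viral nucleocapsids, was at 11.1, 2.85 and 21.5 in SCG, 6.08, 2.63 and 18.2 in SCG+MEF, and 7.67, 72.0, 3.20 and 3.03 in SCG+PSC. Rsad2, or viperin, an enzyme that makes a chain terminator of viral RNA synthesis, was at 11.1, 7.61 and 73.8 in SCG, 10.1, 10.5 and 116 in SCG+MEF, and 65.2, 242, 25.6 and 23.2 in SCG+PSC. Both genes were higher in replicate 3 than in replicates 1 and 2 of SCG and SCG+MEF, and their SCG+PSC libraries overlapped with both groups. Cmpk2, a mitochondrial nucleotide kinase next to Rsad2 on chromosome 12, was at 259, 160 and 540 in SCG, 311, 217 and 478 in SCG+MEF, and 341, 747, 326 and 399 in SCG+PSC. Replicate 3 was the highest of the 3 SCG libraries for 30 of the 46 genes and the highest of the 3 SCG+MEF libraries for 29.

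Of the 4 IFI genes, Ifi44 had the second highest fold change of all 46. It was at 0, 3.81 and 8.20 in SCG, 2.03, 3.504 and 10.1 in SCG+MEF, and 61.4, 423, 5.34 and 11.1 in SCG+PSC. Its log2 fold change was 3.96 ± 1.34, and at so few reads in the controls the pseudocount of 1 sets part of its size. Ifi27l2a was at 1.01, 1.90 and 11.3 in SCG, 2.03, 6.13 and 1.01 in SCG+MEF, and 17.3, 99.3, 10.7 and 2.02 in SCG+PSC, so that replicates 3 and 4 lay inside the range of SCG.

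Culture with NIH 3T3 cells was the control for a fibroblast that is not from the pancreas. In SCG+MEF against SCG the median log2 fold change over the 46 genes was 0.17 (0.03 over all protein-coding genes), with 32 genes above 0. None of the 46 was past the threshold with limma, with the replicate block, with edgeR or with DESeq2, where 0.0189% of all genes were past it with limma and 0.17% were higher with the block. An unadjusted p under 0.05 was found for 1 gene (Gbp2) and for 2.44% of all genes. For 4 of the 46 genes (Gbp2, Gbp5, Zbp1 and Dtx3l) the 3 SCG+MEF libraries lay above all SCG libraries, against 2.95% of all genes, and in each of the 3 same-numbered pairs 11 were higher (17.4% of all genes). The log2 fold changes were highest for Gbp5 (1.72 ± 0.82), Tgtp1 (0.75 ± 0.94), Oas3 (0.74 ± 0.88), Gbp2 (0.64 ± 0.28) and Ifi44 (0.59 ± 1.34), and lowest for Oas1a (-0.72 ± 0.71), Mx1 (-0.36 ± 1.06) and Oasl1 (-0.27 ± 0.92). Without SCG replicate 2 the median was -0.01.

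**Figure D3:**
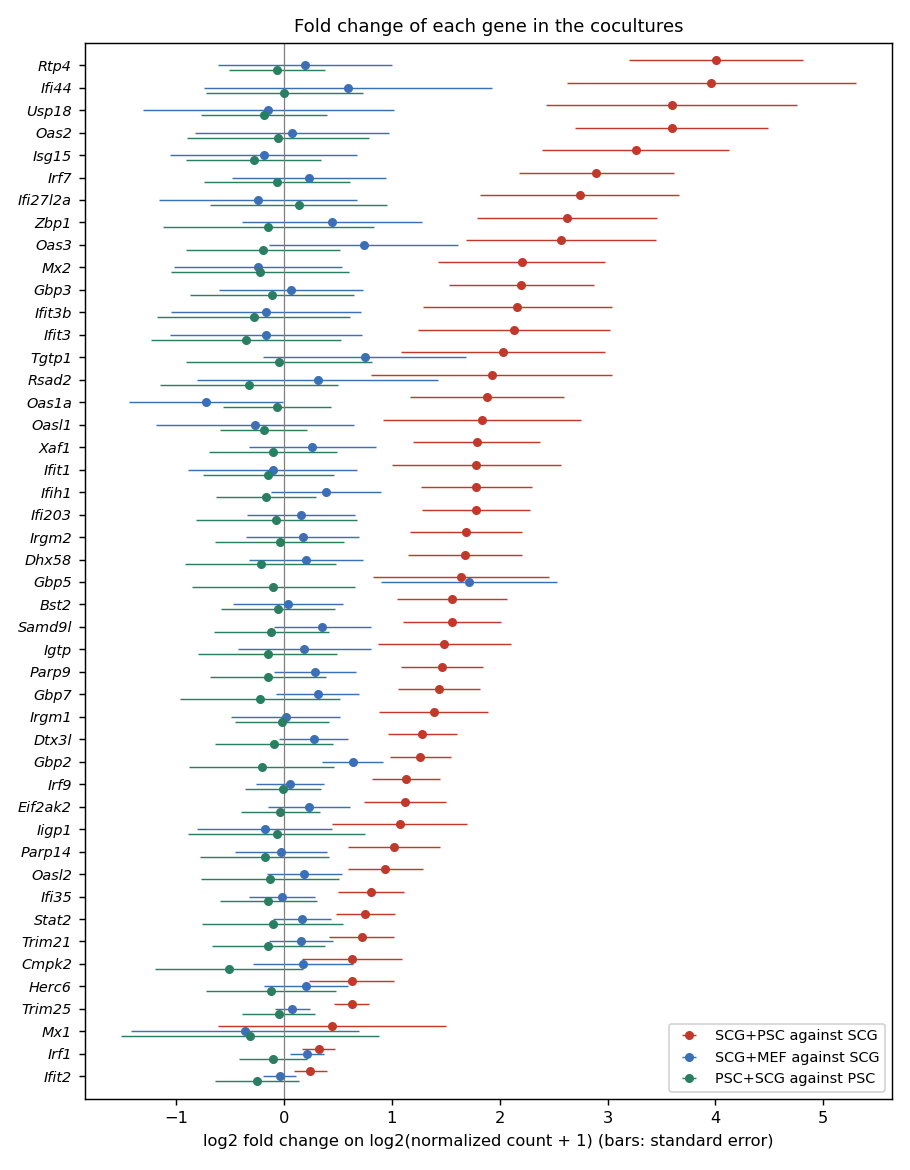
Log2 fold change of each of the 46 genes on log2(normalized count + 1) with its standard error from limma, ordered by SCG+PSC against SCG. All 46 points of SCG+PSC against SCG (red) lie above 0, with a median of 1.66, while the blue points (SCG+MEF against SCG) have a median of 0.17 and the green points (PSC+SCG against PSC) a median of -0.12.

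SCG+PSC against SCG+MEF sets the 2 cocultures side by side. It uses the same SCG+PSC libraries as the comparison with SCG, with which in view the genes were chosen, so its values and calls are a description too and support nothing on their own. The median log2 fold change was 1.384, and 45 of the 46 genes were above 0. With limma 0 of the 46 were past the threshold (0% of all genes) and 31 had an unadjusted p under 0.05 (3.07% of all genes), edgeR called 0 and DESeq2 called 7 (0.088% of all genes higher). With the replicate block limma called 4 genes higher, Rtp4, Irf9, Parp9 and Parp14, where 0.955% of all genes were called higher. The groups did not overlap for 21 genes, all higher in SCG+PSC, as was the case for 3.33% of all genes, and in each of the 3 same-numbered pairs 26 were higher (16.7% of all genes). The highest log2 fold changes were those of Rtp4 (3.81), Usp18 (3.74), Oas2 (3.52), Isg15 (3.45) and Ifi44 (3.37), and the lowest those of Gbp5 (-0.07), Irf1 (0.10) and Ifit2 (0.28). With all 4 SCG+PSC libraries the median was 1.14, without replicate 2 it was 0.68, and with replicates 1, 3 and 4 as the group it was 0.57.

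On the stellate cell side, no gene of the 46 was past the threshold between PSC+SCG and PSC. In PSC+SCG against PSC the median log2 fold change was -0.12, with 2 genes above 0 (Ifi27l2a, 0.13 ± 0.82, and Ifi44, 0.003 ± 0.73). With limma none of the 46 was past the threshold and none had an unadjusted p under 0.05, where 0% and 1.41% of all genes did. With the replicate block 0 were past it as well, where 0.523% of all genes were called. In limma with that block 5 of the 46 had an unadjusted p under 0.05, and the share of all genes was not computed there. Without the block the standard errors ran from 0.32 to 1.20 on the log2 scale. No gene was higher in all 3 same-numbered pairs, and 6 were lower in all 3 (9.94% of all genes).

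The spread followed the replicate number. Both replicates 3, PSC and PSC+SCG alike, lay below the other 4 libraries for 46 of 46 genes, an order found in 23.6% of all genes. PSC replicate 2 was the highest of the 6 libraries for 41 genes and PSC+SCG replicate 2 for the other 5. PSC replicate 2 exceeded PSC replicate 3 by a median of 4.05-fold (1.85-fold for Irf1 to 14.5-fold for Mx1), and in PSC+SCG the same ratio was 4.78-fold (2.11-fold for Trim25 to 19.0-fold for Mx1). The 2 ratios ranked the 46 genes alike (rho = 0.93 across genes). In same-numbered pairs the median log2 difference of PSC+SCG from PSC was 0.19, -0.17 and -0.42 in replicates 1 to 3. In fits without the block, leaving out 1 library kept its same-numbered partner in the other group. The median over the 46 genes then carried the spread between replicate numbers. It was -0.68 without PSC replicate 3, -0.55 without PSC+SCG replicate 2, 0.30 without PSC replicate 2 and 0.53 without PSC+SCG replicate 3. These 4 values do not measure how steady the difference within pairs was. Without both replicates 3, a setting added after the data were seen, the median was 0.00 to the second decimal, with 21 genes above 0.

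Named genes of the stellate cells show how far the cultures stood apart. Isg15 was at 14587, 22142 and 5323 in PSC and 11671, 19711 and 4161 in PSC+SCG. Irf7 was at 10295, 16457 and 3434 in PSC and 9946, 16375 and 3108 in PSC+SCG, and its log2 fold change was -0.07 ± 0.68. The lowest fold changes were those of Cmpk2 (-0.51 ± 0.69), with 853, 2366 and 549 in PSC and 951, 1563 and 257 in PSC+SCG, Ifit3 (-0.35 ± 0.88), and Rsad2 (-0.32 ± 0.83), with 1301, 3966 and 564 in PSC and 1568, 2694 and 351 in PSC+SCG. For each of them the 2 groups overlapped.

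The order of the replicate numbers was shared by the 2 sides. Replicate 2 was highest, replicate 1 followed and replicate 3 was lowest in PSC, in PSC+SCG and among replicates 1 to 3 of SCG+PSC by the summed count of the 46 genes, and in SCG and SCG+MEF replicate 3 was highest by that sum. The labels do not say whether same-numbered libraries of the 2 tables came from 1 coculture dish, and with 3 numbers no correlation was computed.

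Since mPSC1 cells carried these genes at a high level, RNA of the stellate line in the explant libraries was measured with genes that the line expressed and ganglia did not. By a rule set after the data were seen, 12 genes had at least 300 normalized counts in each of the 6 stellate cell libraries and under 5 in each SCG and SCG+MEF library, the developmental transcription factors Pax3, Emx2 and Gata4 among them. Their summed count was 12211 to 21622 in the stellate cell libraries, 1.01 to 10.2 in SCG, 6.13 to 8.11 in SCG+MEF and 12.5, 15.2, 6.41 and 7.06 in SCG+PSC replicates 1 to 4. In SCG+PSC replicate 2 this was 0.122% of the sum in PSC+SCG replicate 2. The excess of the 46 interferon-stimulated genes over the SCG mean was 16.2% of their sum in PSC+SCG replicate 2. In replicate 1 the corresponding values were 0.102% and 4.72%. The first share is a whole sum and the second an excess, and the rule itself kept the 12 genes low in SCG and SCG+MEF. SCG+PSC replicates 2 and 1 were the 2 highest explant libraries for the 12 genes as well. Whether RNA of the line added to the 46 genes was not tested. Gene by gene the excess in replicate 2 ran from 2.12% (Oas3) to 60.05% (Irf9) of the level in PSC+SCG replicate 2, with a median of 14.6%.

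**Figure D4:**
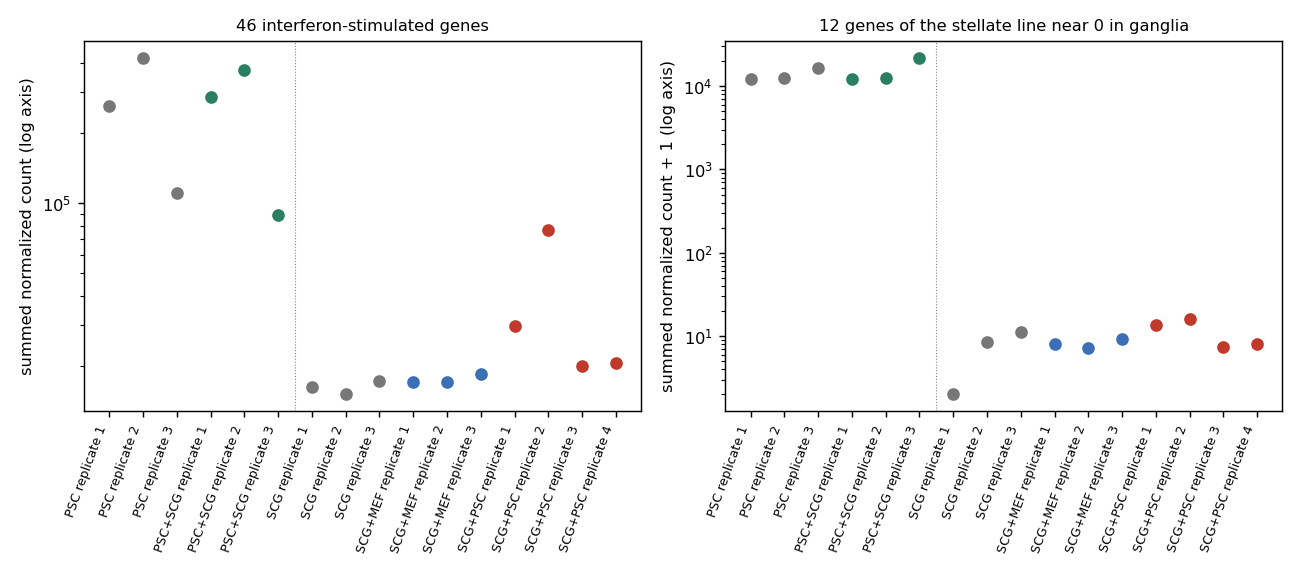
Summed normalized counts in each of the 16 libraries on log axes, for the 46 interferon-stimulated genes at left and for 12 genes of the stellate line that are near 0 in ganglia at right (plus 1). The 46 genes reached 76468 in SCG+PSC replicate 2 against at most 18425 in SCG and SCG+MEF. The genes of the line summed to at most 15.2 in any explant library, also in SCG+PSC replicate 2.

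Markers of cell states were set beside these libraries. Macrophage markers summed to 11575, 9655, 9331 and 10116 in SCG+PSC replicates 1 to 4, and did not follow the order of the interferon-stimulated genes. Markers of cycling cells summed to 10923, 19981, 13131 and 13631 in SCG+PSC, 2810, 13858 and 5608 in SCG and 3961, 14401 and 6363 in SCG+MEF, so that replicate 2 was the highest library of each group and SCG+PSC replicate 2 the highest of all. Whether cell cycle and interferon-stimulated genes are linked in these libraries was not tested.

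The upstream pathway was described with 61 further genes of ligands, receptors, kinases, transcription factors, sensors and brakes. Of 21 interferon ligands, 14 were at 0 in all 10 explant libraries and none reached 3 reads in any of them, Ifnb1 being seen with 2 reads in SCG+PSC replicate 3 alone. A count of 0 allows up to 3 reads. In the stellate cells Ifnb1 was at 8.46, 31.8 and 6.74 in PSC and 14.8, 15.8 and 6.38 in PSC+SCG, and Ifna4 at 6.76, 22.7 and 0 in PSC and 4.94, 7.89 and 2.13 in PSC+SCG. Both were highest in PSC replicate 2 and lowest in a replicate 3, as most of the interferon-stimulated genes were. Ifnz did not follow that order, at 5.92, 7.95 and 6.74 in PSC and 5.93, 13.8 and 7.45 in PSC+SCG. It was highest in PSC+SCG replicate 2 and not lowest in either replicate 3. All of these ligands were too low for a test of that order. Ifng, the type II ligand, was at 0 in all 16 libraries.

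The chains of the type I and type II receptors were expressed on both sides. Ifnar1 ranged from 3849 to 4619 normalized counts over the 10 explant libraries and from 2570 to 3198 over the stellate cell libraries, and Ifnar2 from 499 to 658 and from 363 to 634. Ifngr1 ranged from 1207 to 1580 and Ifngr2 from 2732 to 4055 in explants. Of the type III receptor, Ifnlr1 ranged from 19.2 to 51.6 in explants and from 11.6 to 31.8 in stellate cells, and Il10rb was at or near 0, with at most 4.03 in any library. Whether exons of Il10rb overlap other annotated genes was not examined. The kinase genes Jak2 and Tyk2 lay within 1807 to 2527 and 923 to 1443 in explants, and Jak1 stood at 22187, 21490.3 and 16061 in SCG, 33825, 25564 and 24627 in SCG+MEF and 24301, 20467, 20219.9 and 21436 in SCG+PSC.

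Of the 39 pathway genes tested in explants 0 were past the threshold in SCG+PSC against SCG with limma, 4 had an unadjusted p under 0.05 (4.14% of all genes), and 1 (Tlr3) was called higher with the replicate block (1.76% of all genes). Their median log2 fold change was 0.02. Rigi, the sensor RIG-I, which is itself interferon-inducible, had the largest log2 fold change (1.61 ± 0.49). The sensor adaptors Mavs and Sting1, by contrast, lay at 715 to 1004 and 424 to 534 in SCG+PSC, close to or inside the SCG ranges of 752 to 1002 and 321 to 577. In the stellate cells 0 of 40 tested were past the threshold without the block and 1 (Socs3) with it.

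A further 93 genes known to respond to interferon, none of them among the 46, were listed from general knowledge with these results in view. Of the 84 tested in explants 0 were past the threshold in SCG+PSC against SCG with limma, 36 had an unadjusted p under 0.05 (4.14% of all genes), and their median log2 fold change was 0.83. The 2 groups did not overlap for 25 of them, 24 higher (4.33% of all genes) and 1 lower. With the block 9 were called higher (1.76% of all genes) and 1 lower (Ifitm1). The largest changes were those of Oas1g (3.12 ± 0.70), Ifi209 (2.83 ± 0.92), Ddx60 (2.695 ± 0.80), Slfn8 (2.51 ± 0.69) and Ifi206 (2.45 ± 0.85). Cxcl10, an interferon-inducible chemokine, stood at 39.5, 17.1 and 98.4 in SCG, 37.5, 61.3 and 265 in SCG+MEF, and 57.6, 150.0, 69.4 and 117 in SCG+PSC, so that its highest explant library was SCG+MEF replicate 3.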

How the data were processed

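The 16 mouse libraries were bulk RNA-seq (stranded mRNA kit), grouped by their labels. Per the labels and methods, the authors aligned reads with STAR 2.7.10b to GRCm39, counted them by strand on GENCODE M33 basic and divided each library by its DESeq2 1.38.3 size factor in R 4.2.2, separately for stellate cells and ganglia. The deposited values are thus a signal, normalized counts. Reads were recovered from the steps of these values in 14 libraries (100% of values within 0.01 of a whole read) and not used for PSC+SCG replicate 1 and SCG+PSC replicate 4, so no test on reads is given for stellate cells or for SCG+PSC replicate 4.

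The 46 genes, the other gene lists and the tests were chosen with earlier results of these data known. Log2(normalized count + 1) was tested two-sided with limma 3.58.1 (empirical Bayes with trend) in R 4.3.3 on genes with a sum of at least 10, with Benjamini-Hochberg adjustment over all genes. The ganglion fit held 9 libraries, without SCG+PSC replicate 4. Shares of all genes are over the 14541 protein-coding genes tested in stellate cells and 15908 in ganglia. Standard errors are limma's. Nothing says how many pups each explant library came from or whether libraries came from separate animals. The p-values therefore measure the spread between these cultures. Named genes were 6 members the study names in SCG+PSC, the 5 highest and 3 lowest fold changes per comparison, members with near-identical copies, and ligands, receptors, kinases and large changes of the other lists, of which some are not reported here. Further ones were named by their values.

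Same-numbered libraries deviated from their group means together (r = 0.303, 0.376 and 0.548 for PSC+SCG and PSC, 0.276, 0.397 and 0.217 for SCG+PSC and SCG, 0.393, 0.469 and 0.514 for SCG+MEF and SCG, and 0.256, 0.285 and 0.173 for SCG+PSC and SCG+MEF, over all genes tested), and on that ground the replicate number was taken to pair them. The study's experimental dates are not tied to libraries by the labels. Alternatives were that block, a pseudocount of 0.5 or 8, genes at 10 or more in 3 libraries, all genes above 0, quantile normalization, other choices of SCG+PSC libraries, edgeR 4.0.16, DESeq2 1.42.0 and leaving out each library. The fits were tested on simulated data. Coordinates, overlaps and promoters came from GRCm39 with GENCODE M39. Of the further genes listed, Ifi16 and Mnda had no row.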

Additional observations from a re-analysis of the deposited data

Results flagged for a closer look

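Dixon's test was applied to the 4 SCG+PSC libraries on the log2(normalized count + 1) scale for each of the 46 genes. It marked replicate 2 as a high outlier for Gbp2 (gap over range of 0.903) and Herc6 (0.830), above the critical value for 4 samples. Chance marks about 1 in 20 independent groups, and 2 of 46 is not above that rate. The 46 genes were read in the same 4 libraries and are not independent. Their count therefore cannot tell whether replicate 2 departs by chance. For most genes replicate 1 stands between replicate 2 and the other libraries, so that replicate 2 is not marked although it was highest for all 46.

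Levels in SCG+PSC and SCG+MEF were past the threshold for a difference, with the replicate number as a block in limma, for Rtp4 (log2 difference of 3.81), Parp9 (1.18), Irf9 (1.08) and Parp14 (1.05). Each was higher in SCG+PSC in 3 of 3 same-numbered pairs. Without the block none of the 4 was past it in limma or edgeR, and Rtp4 was in DESeq2 (adjusted p = 0.00614). The genes were chosen with the same SCG+PSC libraries in view, so these calls are a description and no support.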

How the results depend on the processing

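Of the 46 genes, the count past the threshold in SCG+PSC against SCG was 0 with limma and 11 with the replicate block. It was 12 with edgeR and the replicate block and 18 with DESeq2. Of all 15908 protein-coding genes tested, 3, 280, 281 and 53 were called higher under these settings. In SCG+PSC against SCG+MEF the count of the 46 was 0, 4, 7 and 7, where 0, 152, 171 and 14 of all genes were called higher. The count of the 46 was 0 under every other setting run, and in the other 2 comparisons under all settings. Leaving out 1 library at a time, in fits without the block that left its same-numbered partner in, it was 0 throughout. The median log2 fold change over the 46 genes then ran from 0.94 to 2.27 in SCG+PSC against SCG, 0.68 to 2.04 in SCG+PSC against SCG+MEF, -0.01 to 0.26 in SCG+MEF against SCG and -0.68 to 0.53 in PSC+SCG against PSC. Under the other settings these medians were 0.82 to 1.98, 0.57 to 1.69, 0.13 to 0.17 and, without the setting that left out both replicates 3, within 0.01 of the value given. The low ends in SCG+PSC are those without replicate 2. Among the 46 genes the replicate block changed no other call. Genes under 10 normalized counts in the controls are limited by depth, and their fold changes are understated by the pseudocount.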
